A study of Mus musculus with 4 samples.

Results

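Expression of 10 Sox genes was compared between Tbx2/3cDKO and control otocysts at E10.5. The 10 are every gene of the SoxB (Sox2, Sox3, Sox21), SoxC (Sox4, Sox11), SoxE (Sox8, Sox9, Sox10) and SoxF (Sox17, Sox18) sets chosen here, and all probes that the array design names for them were used. They are 10 of 31693 distinct names on the array, some of which match no RefSeq gene. They have 15 of its 39429 probes, 1 to 3 for each gene, and the Sox9 probe was printed 10 times. The otocyst is the epithelial vesicle that forms the inner ear and its ganglion neurons. RNA came from dissected otocysts of NMRI mouse embryos at E10.5. Mutants carried Pax2-cre and were fl/fl for both Tbx2 and Tbx3, which encode T-box repressors. Controls had no cre in their labels and were fl/? for both genes, the second allele being open. Each of 4 arrays of 1 slide received 1 mutant and 1 control RNA in 2 dyes. Replicates 1 and 2 were female and replicates 3 and 4 male, the mutant RNA being red on replicates 1 and 3 and green on replicates 2 and 4. No label says whether an RNA came from 1 embryo or a pool, so the p-values cover the spread among 4 pairs and no more, which may be technical.

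Sox proteins bind DNA through a shared HMG box, and their subgroups mark different lineages. SoxB1 factors, to which Sox2 and Sox3 belong, maintain neural and sensory progenitors, while Sox21, a SoxB2 factor, acts mostly as a repressor. SoxC factors act in newly formed neurons and mesenchyme. SoxE factors act in the otic epithelium, in neural crest and its glia and, for Sox9, in cartilage. SoxF factors act in endothelial cells.

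Well above background were 58.4% to 63.2% of the spots of a channel, and precision is limited by having 4 arrays. Of the targeted genes, Tbx3 had a log2 ratio of mutant over control of -3.43 ± 0.16 (SD, n = 4 arrays; limma adjusted p = 3.26e-06). Tbx2 had 0.06 ± 0.23 (limma adjusted p = 0.656), at a probe that checks nothing, since no source used here gives the deleted part. All 20 genes of a list for the otic epithelium passed the filter on dim probes, so the markers of the labelled tissue were present, although the brightest Pax2 probe was dim (mean log2 level 7.07 for mutant RNAs, 7.17 for control RNAs). That list was lower in the mutant, with 15 of 20 genes lower and 2 higher by limma (adjusted p under 0.05) and a median of -0.73. Across probes the ratios of replicates 1 and 4 had the lowest Pearson correlation between arrays, 0.643, and those of replicates 1 and 2 the highest, 0.849.

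All 15 Sox probes were well above background in both channels on every array. By limma with Benjamini-Hochberg adjustment over 23186 probes (threshold 0.05), 9 Sox probes were higher in the mutant, 2 were lower and 4 had no call. Over all probes tested 12.4% were called higher and 9.7% lower, 22.1% in all. The mutant and control levels of the 4 arrays did not overlap for 10 of the 15, against 22.4% of all probes, and the ratio had 1 sign on all arrays for 12, against 40.7%. With each gene standing by its brightest probe, 7 genes were higher (Sox3, Sox21, Sox4, Sox11, Sox8, Sox17, Sox18), 2 lower (Sox2, Sox10) and 1 without a call (Sox9), against 13.1% higher and 9.81% lower over 18416 genes. The median log2 ratio was 0.28 for the 10 genes and 0.00 for all genes. Without replicate 3, 4 of the 7 higher genes were called, and without replicate 1, 1 of the 2 lower ones. Of the 10, Sox3, Sox2 and Sox17 kept their call under each of the 16 alternatives of the processing that were run.

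**Figure D1:**
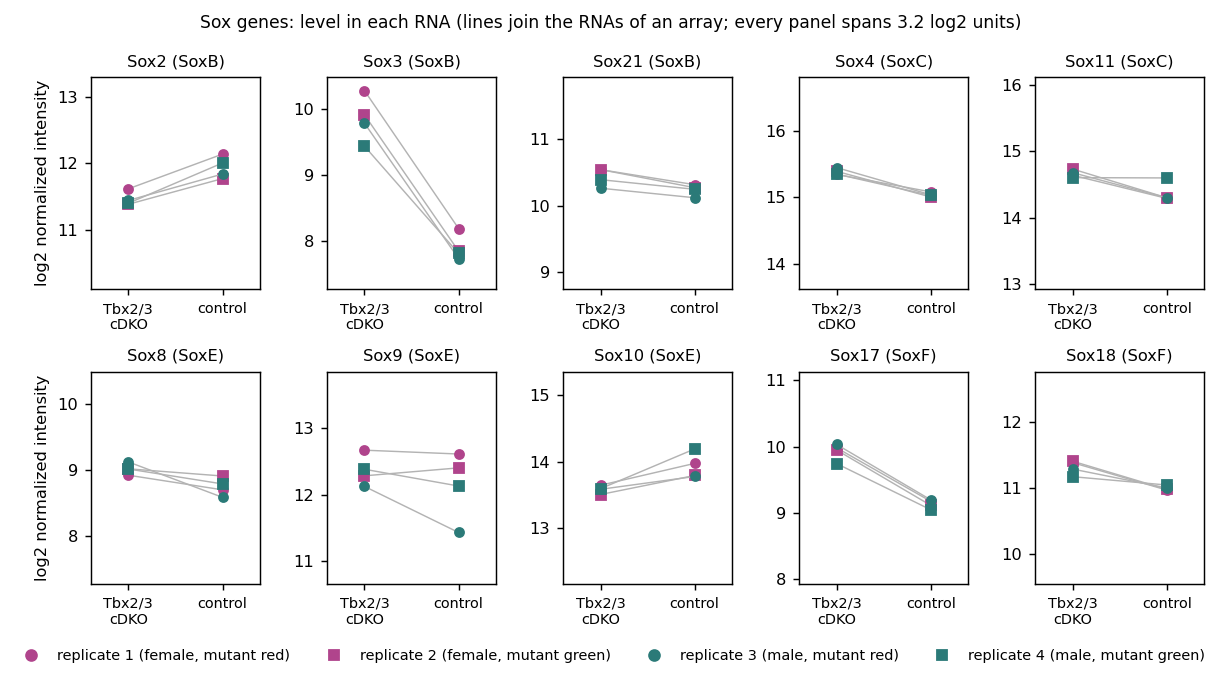
Log2 normalized intensity of the 10 Sox genes in the mutant (left) and control (right) RNA of each array, by their brightest probe. Points are single RNAs, lines join the RNAs of an array, colours give the sex and shapes the dye of the mutant RNA. Sox3 and Sox17 are higher in every mutant RNA than in any control RNA, and Sox2 and Sox10 lower.

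Sox3 had the largest change of the 10 genes. This SoxB1 factor of neural progenitors had log2 levels of 10.27, 9.91, 9.78 and 9.44 in the mutant RNAs of replicates 1 to 4, against 8.20, 7.85, 7.74 and 7.82 in the control RNAs. Every mutant level lay above every control level. The log2 ratios were 2.08, 2.05, 2.04 and 1.62, a mean of 1.95 ± 0.22 (SD, n = 4 arrays) or 3.86-fold higher (limma SE 0.08, adjusted p = 1.72e-05). Replicate 4 was the lowest of the arrays and the other 3 lay within 2.04 to 2.08. In size its ratio stood at percentile 99.9 of the probes tested. The probe lies on chromosome X at 58144564 to 58144623 (mm9, as are all probe positions given), and it read both the female and the male pairs as higher.

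Sox2, the SoxB1 factor of the neural and prosensory domain of the otocyst, changed in the opposite direction. Its log2 levels were 11.61, 11.38, 11.44 and 11.40 in the mutant RNAs, against 12.14, 11.77, 11.84 and 12.00 in the control RNAs. The 2 sets did not overlap. The log2 ratios were -0.52, -0.39, -0.40 and -0.61, and they averaged -0.48 ± 0.11 (SD, n = 4 arrays), 1.39-fold lower than in controls (limma SE 0.06, adjusted p = 0.00165; probe on chromosome 3, 34550773 to 34550832). On each array Sox3 was thus higher and Sox2 lower, and the difference between their log2 ratios was 2.43 ± 0.16 (SD, n = 4 arrays), from 2.22 to 2.60.

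Sox21, which represses genes that SoxB1 factors activate, had 2 probes on chromosome 14. At the brighter one (118633351 to 118633410) the log2 levels were 10.54, 10.55, 10.26 and 10.39 in the mutant RNAs, against 10.32, 10.27, 10.12 and 10.25 in the control RNAs, so the groups overlapped even though each mutant RNA exceeded its own control. By array the log2 ratios were 0.23, 0.27, 0.14 and 0.15, with a mean of 0.20 ± 0.06 (SD, n = 4 arrays) and a limma adjusted p of 0.0401. At the other probe (118633788 to 118633847) they were 0.14, 0.16, 0.16 and -0.08, with a mean of 0.09 ± 0.12 (SD, n = 4 arrays) and no call (limma adjusted p = 0.324, 95% interval -0.05 to 0.23). The call at the first probe was close to the threshold. It was lost without replicate 1 (adjusted p = 0.187), without replicate 2 (0.134), without replicate 3 (0.123) and under 7 other alternatives of 16 in all.

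A list of otic genes tied to the prosensory and proneural domains, with some of the non-sensory epithelium beside them, had calls in both directions. Of 16 genes tested 3 were higher and 5 lower by limma (adjusted p under 0.05; 13.1% and 9.81% of all genes), with a median log2 ratio of 0.07. The lower ones include Fgf20 (-0.67 ± 0.12, SD, n = 4 arrays, with -0.59 at its other probe), a growth factor of prosensory cells, Lmx1a (-0.52 ± 0.09), a homeobox gene of the non-sensory epithelium, and Fgf10 (-0.66 ± 0.27), a growth factor of the neurosensory domain. The higher ones include Dll1 (0.57 ± 0.20), a Notch ligand of neuroblasts, and Hey1 (0.22 ± 0.06), a Notch and Fgf target. Without replicate 1, 2 or 3 a single gene of the list was called higher, and without replicate 1 the lower count was 3. Hindbrain tissue borders the otocyst and expresses SoxB1 genes. Of 15 hindbrain genes 7, among them Egr2, Hoxb1, Olig2 and Pax7, failed the filter on dim probes, being well above background in at most 1 RNA of each genotype. En2 passed it through the mutant RNAs alone, since none of the control RNAs gave a signal well above background, and was at least 4.15-fold higher. Of the 7 genes well above background on all arrays in both genotypes 1 was higher, Pax3 (1.05 ± 0.21, with 0.60 at its other probe), and 2 lower, Hoxb2 (-0.41 ± 0.24) and Nkx6-1 (-0.45 ± 0.26; limma adjusted p = 0.0765 without replicate 3). The mean log2 level over the 7 genes was 8.89 to 9.04 in the mutant RNAs and 8.95 to 8.96 in the control RNAs, so the genotypes overlapped. Over all 8 tested genes, with En2 added, it was 8.87 to 9.04 against 8.65 to 8.71, without overlap. The part of hindbrain RNA in the rise of Sox3 was not tested.

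**Figure D2:**
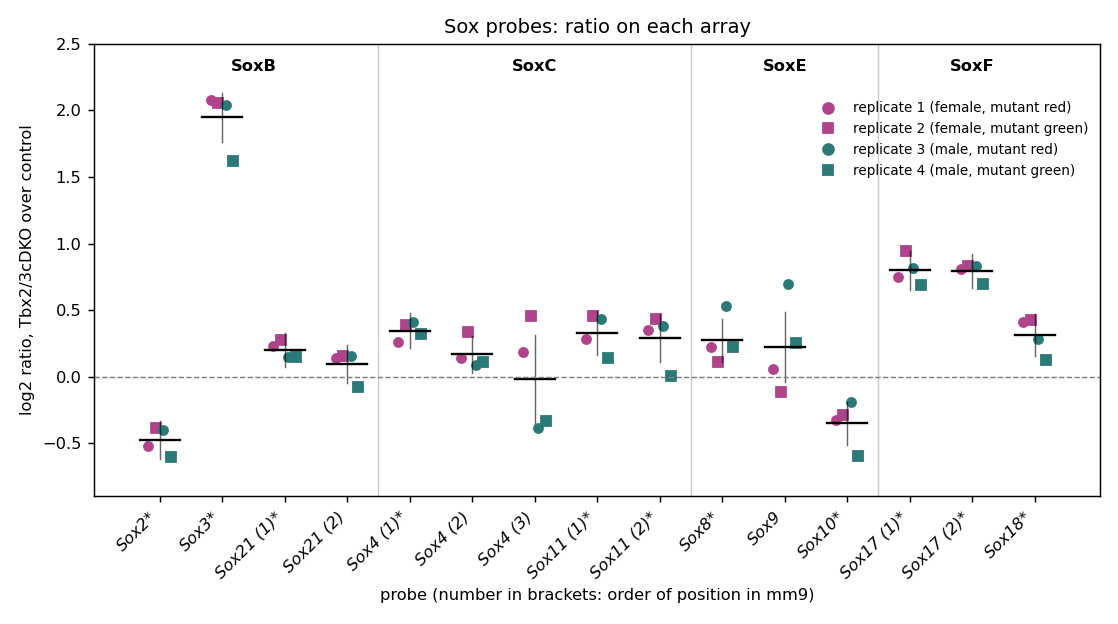
Log2 ratio of mutant over control for each of the 15 Sox probes, ordered by subgroup. Points are the 4 arrays, black lines the fitted ratio with its 95% limma interval, and asterisks mark probes with an adjusted p under 0.05; numbers in brackets give the order of a gene's probes in mm9. Sox3 stands at 1.62 to 2.08 and both Sox17 probes at 0.69 to 0.95, while the arrays of Sox9 and of the third Sox4 probe lie on both sides of 0.

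Sox4 and Sox11, which act together in new neurons and in mesenchyme, moved little and in the same direction at their brightest probes. Sox4 had 3 probes on chromosome 13 that gave different answers. At the brightest (29040826 to 29040885, starting at base 4697 of its transcript) the log2 levels were 15.35, 15.39, 15.45 and 15.35 in the mutant RNAs, against 15.08, 15.01, 15.04 and 15.03 in the control RNAs, without overlap. The log2 ratios were 0.26, 0.39, 0.41 and 0.32, a mean of 0.35 ± 0.07 (SD, n = 4 arrays) or 1.27-fold higher (limma SE 0.05, adjusted p = 0.00431). With the mean of the 3 probes the log2 ratio was 0.17 and the call was lost (adjusted p = 0.150).

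The second Sox4 probe (29042856 to 29042915, starting at base 2636) had log2 ratios of 0.14, 0.34, 0.09 and 0.11, all above 0, with a mean of 0.17 ± 0.11 (SD, n = 4 arrays) and no call (limma adjusted p = 0.0903, and 0.0494 without replicate 4). The third (29044482 to 29044541, starting at base 1010) split by sex. Its log2 levels were 12.62, 12.84, 12.30 and 12.36 in the mutant RNAs, against 12.43, 12.38, 12.69 and 12.69 in the control RNAs. The ratios were 0.19, 0.46, -0.38 and -0.33, above 0 on both female arrays and below 0 on both male arrays. The male minus female difference was -0.68, and its limma interaction test missed the threshold (adjusted p = 0.0883). This probe had a mean of -0.02 ± 0.41 (SD, n = 4 arrays; limma adjusted p = 0.945, 95% interval -0.35 to 0.32), so the size of the Sox4 change depends on the probe that is read.

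Both Sox11 probes, on chromosome 12, read as higher. At the brighter one (28020087 to 28020146) the log2 levels were 14.64, 14.74, 14.68 and 14.61 in the mutant RNAs, against 14.29, 14.30, 14.30 and 14.60 in the control RNAs. The control RNA of replicate 4 came close to its mutant partner, and the groups were barely apart. On the 4 arrays the log2 ratios were 0.35, 0.43, 0.38 and 0.00, with a mean of 0.29 ± 0.19 (SD, n = 4 arrays; limma adjusted p = 0.0349). The other probe (28019541 to 28019600) had 0.28, 0.45, 0.43 and 0.14, with a mean of 0.33 ± 0.15 (SD, n = 4 arrays; limma adjusted p = 0.0146). The call at the brighter probe was lost without replicate 1 (log2 ratio 0.30, adjusted p = 0.0968) or 3 (0.28, 0.125) at about the same ratio, and without replicate 2 at a smaller one (0.18, 0.0937). It was also lost with plain background subtraction (0.0726), the scanner software's ratios (0.0791) and the authors' series values (0.0784). The call at the other probe was lost without replicate 3 (0.0801). The Sox4 minus Sox11 difference in log2 ratio was 0.05 ± 0.18 (SD, n = 4 arrays), from -0.09 to 0.32.

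Promoter sequence from RefSeq (GRCm38.p6) was at hand for 5 of the 10 genes, Sox2, Sox4, Sox8, Sox11 and Sox21, and the 250 bases before the start were searched on both strands. Of 4 motifs searched, 3 were in none of the 5 windows: the T-box site AGGTGT (11.8% of 32851 promoters), its longer form AGGTGTGA (1.12%) and the Sox site AACAAT (9.42%). The fourth, the CCAAT box (CCAAT or ATTGG, in 33.85% of promoters), was added after these letters had been read and the other motifs had given no match, so its count is a description with no weight as a test. It was found in 3 windows, once each in Sox2 and Sox11 and 4 times in Sox4. These 3 are shown, read 5′ to 3′ on the strand of the gene with each CCAAT box in capitals, so that the 2 SoxC promoters can be set beside that of a gene that changed in the opposite direction. Their windows are chr13:28953700-28953949 for Sox4 and chr12:27342719-27342968 for Sox11, both on the minus strand, and chr3:34649745-34649994 on the plus strand for Sox2. A match describes these letters and is no evidence of binding.
Sox4: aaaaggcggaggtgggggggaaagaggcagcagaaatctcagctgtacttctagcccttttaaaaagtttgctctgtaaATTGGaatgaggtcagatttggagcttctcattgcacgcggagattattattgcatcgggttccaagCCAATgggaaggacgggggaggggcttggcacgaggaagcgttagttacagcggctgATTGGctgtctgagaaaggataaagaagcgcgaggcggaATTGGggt
Sox11: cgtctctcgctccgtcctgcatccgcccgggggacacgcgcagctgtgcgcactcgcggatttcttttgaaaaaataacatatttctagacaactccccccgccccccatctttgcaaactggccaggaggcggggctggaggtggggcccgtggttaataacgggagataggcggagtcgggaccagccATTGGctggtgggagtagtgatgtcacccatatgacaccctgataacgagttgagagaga
Sox2: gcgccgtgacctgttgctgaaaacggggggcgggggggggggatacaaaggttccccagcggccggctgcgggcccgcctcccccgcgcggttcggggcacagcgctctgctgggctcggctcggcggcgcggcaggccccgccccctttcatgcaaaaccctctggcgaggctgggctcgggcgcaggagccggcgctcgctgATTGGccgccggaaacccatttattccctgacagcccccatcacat

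Genes of early neurons, where SoxC factors act, were mostly higher. Of 18 tested, 14 were higher and 0 lower by limma, with a median log2 ratio of 0.67 (4 had an adjusted p above 0.05, with ratios of 0.12 to 0.16). The shares over all genes were 13.1% and 9.81%. Nhlh1, counted as higher at 0.45, had -0.03 and no call at its other probe. The other probes of Elavl4, Map2 and Neurod1 were called higher. Nefm, a neurofilament, had 1.65 ± 0.07 (SD, n = 4 arrays). For Pou4f1, which sensory neurons need, the ratio was 1.53 ± 0.08, and for Ina, another filament, 1.27 ± 0.12 (1.04 at its other probe). That other Ina probe was well above background in 4 mutant and 2 control RNAs. The mean level of the list was 10.85 to 11.02 in the mutant RNAs and 10.08 to 10.16 in the control RNAs on the log2 scale. In dissected tissue, more cells of a type and more RNA per cell cannot be told apart.

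The 3 SoxE genes did not move together. Sox10, which marks the otic epithelium and neural crest glia, was lower. Its log2 levels were 13.65, 13.51, 13.58 and 13.59 in the mutant RNAs, against 13.97, 13.79, 13.78 and 14.19 in the control RNAs. Every mutant RNA lay below every control RNA. This gave log2 ratios of -0.33, -0.29, -0.19 and -0.60, a mean of -0.35 ± 0.17 (SD, n = 4 arrays) or 1.28-fold lower (limma SE 0.07, adjusted p = 0.0104, and 0.0534 without replicate 1; probe on chromosome 15, 78985518 to 78985577).

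Sox8, a close relative that often overlaps with Sox10 in crest cells, was slightly higher. Its log2 levels were 8.92, 9.02, 9.12 and 9.02 in the mutant RNAs, against 8.70, 8.91, 8.59 and 8.79 in the control RNAs. Replicate 3 had the largest difference, and the lowest mutant RNA exceeded the highest control RNA by a small margin. Array by array, log2 ratios were 0.22, 0.11, 0.53 and 0.22, with a mean of 0.27 ± 0.18 (SD, n = 4 arrays; limma adjusted p = 0.0279; probe on chromosome 17, 25703094 to 25703153). Without replicate 3 the adjusted p was 0.168, without replicate 4 it was 0.0697, and the call was also lost with plain background subtraction (0.0509), the scanner software's ratios (0.0614) and the authors' series values (0.0607).

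Sox9, needed for the otic placode and for cartilage, had no call and the widest spread between arrays apart from the third Sox4 probe. Its log2 levels were 12.67, 12.28, 12.12 and 12.38 in the mutant RNAs, against 12.61, 12.40, 11.43 and 12.13 in the control RNAs. The control RNA of replicate 3 was the lowest of the 8 RNAs. The log2 ratios were 0.06, -0.12, 0.69 and 0.25, with a mean of 0.22 ± 0.35 (SD, n = 4 arrays; limma adjusted p = 0.218, 95% interval -0.04 to 0.49, probe on chromosome 11, 112648809 to 112648868). The 10 spots of this probe agreed within each array, with SDs of 0.03 to 0.05 on the log2 scale, so the differences between the arrays exceed the spread between spots. The mean ratio was 0.47 in the male and -0.03 in the female pairs, a difference of 0.50 with a limma interaction adjusted p of 0.130. The Sox9 ratio turned on the arrays used: it was 0.38 without replicate 1, which passed the threshold (limma adjusted p = 0.0353), and 0.06 without replicate 3 (0.775). It was 0.31 without replicate 2 (0.0826) and 0.13 without replicate 4 (0.507).

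**Figure D3:**
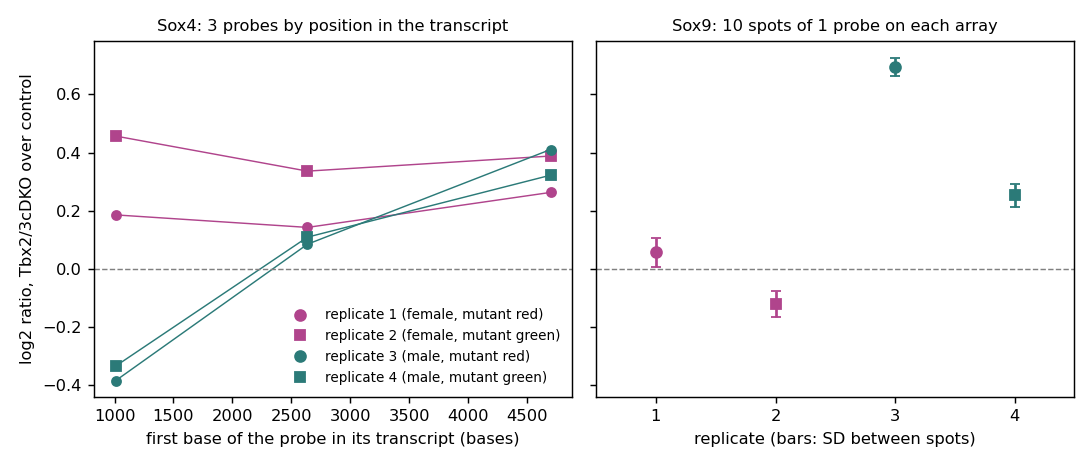
Left, log2 ratio of mutant over control at the 3 Sox4 probes against the first base of each probe in its transcript, with 1 line for each array. Right, mean log2 ratio of the 10 Sox9 spots on each array with the SD between spots. The female and male arrays part at the Sox4 probe that starts at base 1010, and Sox9 runs from -0.12 on replicate 2 to 0.69 on replicate 3.

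Neural crest and glial genes, in which SoxE factors act, went both ways. Of 20 on the list 14 were tested, 5 were higher and 7 lower by limma, with a median log2 ratio of -0.10. Among the lower ones were Gfra3, a receptor of sensory neurons and glia, with -0.59 ± 0.15 (SD, n = 4 arrays), and Ednrb, the endothelin receptor of crest cells, with -0.67 ± 0.25 (-0.33 at its other probe). That other Ednrb probe was well above background in 2 mutant and 4 control RNAs. Among the higher ones were Fabp7, of early glia and neural progenitors, with 0.85 ± 0.20, Zeb2, of crest and mesenchyme, with 0.84 ± 0.21 (0.21 and no call at its other probe), and Ets1, which endothelial cells also express, with 0.55 ± 0.07 (0.33 at its other probe). The lower count was 4 without replicate 1, 3 without replicate 3, and 4 with median centring in place of loess. On the cartilage list, which holds matrix genes and the Sox9 partners Sox5 and Sox6, 2 of 12 genes were higher and 1 lower, the median being 0.07. Over all genes 13.1% were higher and 9.81% lower, so the cartilage counts are near the background. The crest and glial counts lie above it in both directions. Col9a3 had -0.81 ± 0.12, Hapln1, a link protein, 0.37 ± 0.14, and Col11a1 0.28 ± 0.09 (limma adjusted p = 0.0808 without replicate 3, which leaves 1 higher gene). Without replicate 2, or with median centring, 2 cartilage genes were lower.

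The SoxF genes Sox17 and Sox18, which act in endothelial cells of vessels, were both higher. At its brighter probe (4481503 to 4481562 on chromosome 1) Sox17 had log2 levels of 9.98, 9.95, 10.03 and 9.75 in the mutant RNAs, against 9.18, 9.12, 9.20 and 9.05 in the control RNAs. No mutant level fell near a control level. Its log2 ratios were 0.81, 0.83, 0.83 and 0.70, a mean of 0.79 ± 0.07 (SD, n = 4 arrays) or 1.73-fold higher (limma SE 0.05, adjusted p = 0.00012). The other probe (4481038 to 4481097) had 0.75, 0.95, 0.82 and 0.69, with a mean of 0.80 ± 0.11 (SD, n = 4 arrays; limma adjusted p = 0.000212), so the 2 probes differ by less than the spread between arrays.

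Sox18, which acts in vessels and in the first lymphatic cells, had log2 levels of 11.38, 11.41, 11.29 and 11.17 in the mutant RNAs, against 10.97, 10.98, 11.00 and 11.05 in the control RNAs. The groups did not overlap, and the male pairs were the closest. Ratios on the log2 scale were 0.41, 0.43, 0.28 and 0.13, a mean of 0.31 ± 0.14 (SD, n = 4 arrays) or 1.24-fold higher (limma adjusted p = 0.0156, and 0.0779 without replicate 1; probe on chromosome 2, 181404789 to 181404848). On every array Sox17 had the higher ratio of the pair, by 0.48 ± 0.09 (SD, n = 4 arrays) and between 0.39 and 0.57. The ratio of Sox7, the remaining SoxF gene and outside the 10, was 0.86 ± 0.17 (limma adjusted p = 0.000243).

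All 23 endothelial genes tested, Sox7 among them, were higher by limma at their brightest probe, with a median log2 ratio of 0.65. Over all genes 13.1% were higher and 9.81% lower. Dimmer probes of Kdr, Plvap and Nos3 had mean log2 ratios of 0.16, 0.17 and 0.31 without a call. Gja4, a connexin of arteries, had 1.24 ± 0.15 (SD, n = 4 arrays), Cd34, a surface protein of vessels, 0.88 ± 0.12 (0.65 at its other probe), and Robo4, a receptor of endothelial cells, 0.86 ± 0.09. The mean log2 level of the list was 11.15 to 11.23 in the mutant RNAs and 10.52 to 10.67 in the control RNAs. Beside it, 12 of 14 erythroid genes were higher and 0 lower (median 1.05), Hbb-bh1, Hbb-y and Slc4a1 having 1.45 ± 0.25, 1.29 ± 0.47 and 1.11 ± 0.12. Rhag, among the 12, passed the filter through the mutant RNAs alone, being well above background in 4 mutant and 2 control RNAs. Mesenchyme genes were higher for 13 of 18 and lower for 0 (median 0.35), Meox2, Osr1 and Foxc1 having 1.68 ± 0.08, 1.24 ± 0.17 and 0.93 ± 0.09. For the erythroid list the mean log2 level was taken over the 13 genes well above background on all arrays in both genotypes, which leaves Rhag out. It was 12.57 to 12.80 in the mutant and 11.62 to 11.90 in the control RNAs. For the mesenchyme list it was 11.49 to 11.58 against 10.91 to 11.06. The part of these lists in the rises of Sox17, Sox18, Sox4 and Sox11 was not tested.

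The otic epithelium list moved the same way as Sox2 and Sox10. Hmx2, a homeobox gene of the dorsal otocyst, had -1.94 ± 0.13 (SD, n = 4 arrays), Oc90, a matrix protein of the otoconia, -1.83 ± 0.24, and Otx1, of the ventral otocyst, -1.71 ± 0.06. The list's mean log2 level was 11.43 to 11.52 in the mutant RNAs and 12.19 to 12.31 in the control RNAs, and its part in the falls of Sox2 and Sox10 was not tested. A single gene of the list was called higher without replicate 1, 2 or 3, and likewise with plain background subtraction, median centring, the scanner software's ratios or the authors' series values.

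**Figure D4:**
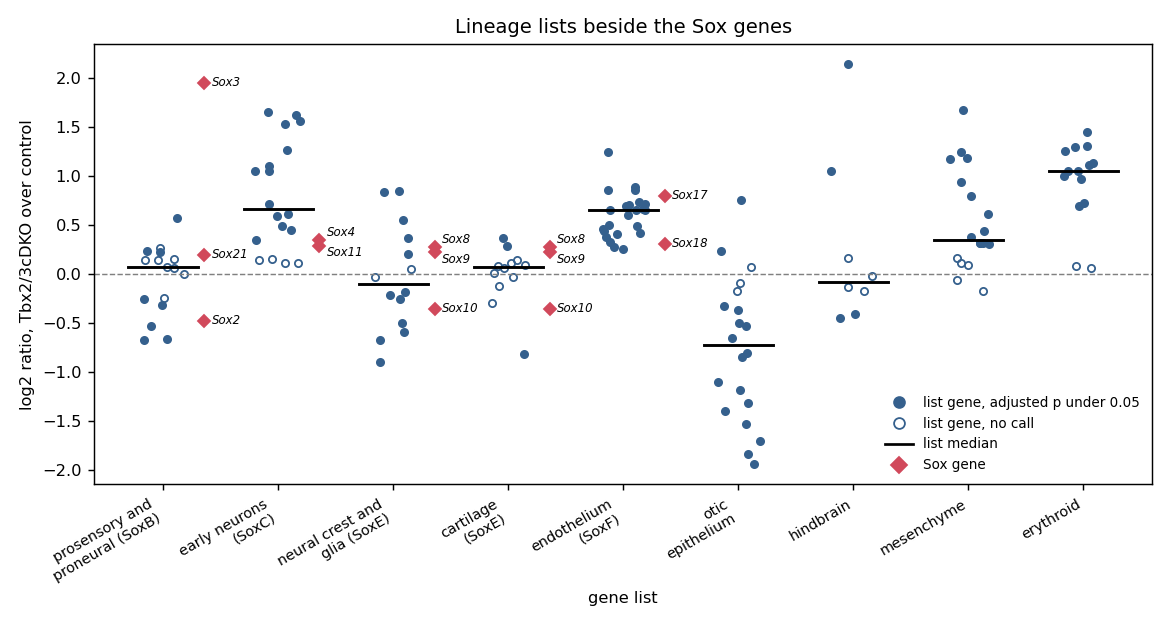
Fitted log2 ratio of mutant over control for the tested genes of 9 lists (circles, filled where the adjusted p is under 0.05), with each list's median as a black line. Red diamonds are the Sox genes of the subgroup named in brackets. The neuronal and endothelial medians are 0.67 and 0.65 and the otic epithelium median is -0.73, with Sox17 above the endothelial median and Sox18, Sox4 and Sox11 below the medians of their lists.

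Differences between members were measured within arrays for 7 pairs. With 4 arrays the exact two-sided sign-flip permutation test cannot go below p = 0.125, which Sox3 minus Sox2, Sox3 minus Sox21, Sox9 minus Sox10, Sox8 minus Sox10 and Sox17 minus Sox18 all reached (adjusted over the 7 pairs, p = 0.175). Sox3 exceeded Sox21 by 1.75 ± 0.19 (SD, n = 4 arrays) in log2 ratio. Sox8 exceeded Sox10 by 0.62 ± 0.19 and Sox9 exceeded Sox10 by 0.57 ± 0.35, on all 4 arrays each. Sox8 minus Sox9 was 0.05 ± 0.18, from -0.16 to 0.23, and did not differ beyond the spread between arrays.

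Of the 9 other Sox genes on the list 6 were tested, and 1 was higher and 1 lower. With 13.1% of all genes higher and 9.81% lower, these counts are near the background. For Sox13, a SoxD factor, the ratio was -0.35 ± 0.19 (SD, n = 4 arrays), with a limma adjusted p of 0.0133, and of 0.0523 without replicate 3. Sox12, the third SoxC gene, had -0.15 ± 0.13, and the SoxD gene Sox6 had -0.12 ± 0.13, without a call (adjusted p = 0.138 for Sox12, 0.174 for Sox6). Sox5, which works with Sox6 and Sox9 in cartilage, had 0.06 ± 0.19 at the brightest probe, while its dimmer probe had -0.26 ± 0.09 (limma adjusted p = 0.0137). Sox1, a SoxB1 gene of the neural tube, had 0.06 ± 0.11 at a dim probe (limma adjusted p = 0.516). Sox14, Sox15 and Sox30 failed the filter on dim probes, being not well above background in any RNA.

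None of the 15 Sox probes passed the limma test of a difference between sexes after adjustment. Across 23186 probes 4 did (0.0173%), and 3846 had an unadjusted p under 0.05. Only 1 residual degree of freedom is left in that fit. Sox3 had a mean ratio of 1.83 in the male and 2.07 in the female pairs (interaction adjusted p = 0.360), and Sox18 had 0.20 in the male and 0.42 in the female pairs (0.319).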

How the data were processed

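Per the labels' protocols, amplified RNA carried 1 of 2 dyes, AlexaFluor555 (green) or AlexaFluor647 (red). Mean spot and local background intensity, with 0 or 1 flags, are deposited as the scanner software (Agilent Feature Extraction 10.7.3.1) wrote them. The deposited files also give the log10 ratio of red over green. The authors' deposited series table holds signed fold values (unit score), which equal the scanner software's ratios within 0.001 on the log2 scale for 90.9% to 93.3% of 39429 probes; each column's median is 1, and no source used here says how the rest were made.

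Signals were corrected with normexp (offset 50) and loess within arrays in limma 3.58.1 under R 4.3.3, leaving out 21 to 32 non-uniform spots per array; no spot (0) was saturated. Repeat spots were averaged by probe. Channel levels are log2 intensities after loess and Aquantile normalization. A probe was kept if either genotype was well above background on 3 or more arrays and 3 or more arrays gave a ratio (23186 probes). The fit (lmFit, then eBayes, with 4.84 prior and 2 residual degrees of freedom) had genotype by dye orientation and a dye term, over all probes, with Benjamini-Hochberg adjustment. A gene stands by its brightest kept probe, giving 18416 distinct names, which the text calls genes. Names came from a RefSeq table (GRCm38.p6), by accession for 26412 probes, symbol for 3854 and synonym for 735, the file's own name standing for the other 8428. SDs cover the 4 arrays, dye effect included, which the fit takes out. "At least N-fold" is a bound for a probe not well above background in any RNA of a genotype, from levels after Aquantile.

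Besides the 10 genes, the text names 9 other Sox genes, the 3 genes of smallest adjusted p in each direction of each list, and Tbx2, Tbx3 and Pax2, except that some genes this rule picks are not reported here; others named among genes failing the filter were chosen after their values were seen. The members and lists were chosen with earlier results of these data known. In simulated data of 23186 probes, 73 of 100 probes changed 1.5-fold and 93 of 100 changed 2-fold were recovered, and 2 of 168 calls were unchanged probes. Only these probes were changed there, with independent noise and no dye effect. In the real data 22.1% of probes were called, so the simulated rates need not hold for them. All arrays lay on 1 slide, so no slide effect could be tested. Figures used matplotlib 3.10.9 under Python 3.11.15.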

Additional observations from a re-analysis of the deposited data

Results flagged for a closer look

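In 6 of 59 sets of 4 array ratios, 1 array stood apart from the other 3 by Dixon's criterion for 4 values. For independent normal values the criterion flags about 1 set in 20. The ratios here hold the dye effect and the sets share the same arrays, so the count cannot be judged against that rate. Replicate 4 was the odd array for Sox3, at 1.62 against 2.04 to 2.08 on the others. It was also the odd one for the Sox21 probe at 118633788, at -0.079 against 0.14 to 0.16, for Sox13, at -0.64 against -0.26 to -0.25, and for Dll1, at 0.27 against 0.65 to 0.71. Sox7 stood apart on replicate 2, at 1.11 against 0.76 to 0.80, and Fgf20 on replicate 1, at -0.85 against -0.63 to -0.59. All values are log2 ratios of mutant over control.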

How the results depend on the processing

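Over 16 alternatives (230 values of the 15 Sox probes), 203 values kept their side of the threshold, 25 lost a call and 2 gained one. No called value reversed (0), while the direction of uncalled values was not counted. The uncalled Sox4 probe at 29044482 changed sign, being -0.16 and -0.22 without replicate 1 or 2 and 0.12 and 0.18 without replicate 3 or 4. Sox3 ranged from 1.84 to 2.39, Sox2 from -0.53 to -0.42 and the 2 Sox17 probes from 0.73 to 0.95, all called. Of the 7 Sox genes called higher, 4 were called with plain background subtraction, 4 with the scanner software's ratios and 4 with the authors' series values. Leaving out each replicate gave 4 to 6 Sox genes higher and 1 to 2 lower. The counts over all probes, 2872 higher and 2248 lower, ranged from 1965 to 2814 higher and from 1337 to 2167 lower without a replicate, the lowest without replicate 3; such fits rest on 3 arrays. In the limma test of the sex difference, 4 probes were called, 0 with the scanner software's ratios (3703 at an unadjusted p under 0.05). For 44 other named genes, 686 of 701 values kept their call; Hey1 lost its call under 5 alternatives, the loss of each replicate being among them. The cause of these losses was not tested. Each ratio already pairs 1 mutant with 1 control RNA, so no further pairing was fitted. Dim probes (Sox1, Pax2) limit what can be read of those genes.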

Other observations

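A probe named Sox2ot, for the RNA whose gene overlaps Sox2, was not well above background in any RNA, its mean log2 level being 6.39 over mutant RNAs and 6.38 over control RNAs. It was picked out after its values were seen.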
